A study of Caenorhabditis elegans with 2 samples.

Results

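The HSP70 family of Caenorhabditis elegans was taken as 8 of the 19985 protein-coding genes in the WBcel235 gene models, listed by symbol as hsp-1, hsp-3, hsp-4, hsp-6, hsp-70, hsp-110, F44E5.4 and F44E5.5. They were chosen by their family and by the deposited peak signals at F44E5.5 and hsp-1, which were already known, so the strength of those peaks is given below as a description, with no test. For each gene, every peak with its summit between 2 kb upstream of the start and 2 kb downstream of the end was collected from 8 peak lists. Binding of ZTF-1, a zinc finger protein, had been mapped by chromatin immunoprecipitation and sequencing (ChIP-seq) with an antibody against GFP in 2 biological replicates of whole L2 larvae aged 28.5 hours. Both replicates were strain OP207, whose integrated fosmid array wgIs207 holds ztf-1 fused to 2XTY1, eGFP and 3XFLAG beside an unc-119 marker, and both cultures were synchronised from L1 larvae starved after bleaching. They form 1 group, so no condition was compared with another. The experiment that the labels name as a possible control was not analysed here. The protein is read out from a transgene in 1 strain, and a whole-animal signal averages over all tissues.

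HSP70 proteins are ATP-driven chaperones that hold exposed stretches of other proteins while these fold, move across membranes or are broken down. J-domain proteins deliver substrates and stimulate ATP hydrolysis, and nucleotide exchange factors, among them the HSP110 class, reset the cycle. Animals keep constitutive HSP70 proteins in the cytosol, the endoplasmic reticulum and the mitochondria, and add heat-inducible cytosolic copies when the heat shock factor HSF-1 is activated at repeated GAA and TTC units in their promoters. In the endoplasmic reticulum and in mitochondria, dedicated unfolded protein responses raise the resident HSP70 genes.

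A peak's signal is a strength value that the authors deposited without a unit, and it was used only to order and describe peaks within a list. The main list compared the replicates by irreproducible discovery rate (IDR, which measures how well ranked peaks recur) and is called thresholded at an IDR of 0.01 or less. It held 238 entries, out of 87133 entries in the ranked list behind it, whose median signal was 23.2. Each ranked entry also carries the paired signal of replicate 1 and of replicate 2, and at weak entries the pair can belong to a stronger neighbour. This was so for 14 of the 62 distinct entries around the HSP70 genes, counted as those with a paired signal over 2 times their own. No paired signal of those entries is given below. The rule can miss a pair whose summit lies elsewhere, as at the start of hsp-6 and the end of hsp-70. No read counts were used, so the depth is unknown.

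Thresholded peaks lay at 3 of the 8 HSP70 genes, namely F44E5.4, F44E5.5 and hsp-1, in 5 distinct peaks. Across all protein-coding genes the same rule found 328 of 19985, or 1.64% (95% Clopper-Pearson interval 1.47 to 1.83%, counting error only). F44E5.4 and F44E5.5 share 1 of these peaks, and each has a further thresholded peak past its end. In the single-replicate lists, at an IDR of 0.001 and at a q-value of 0.05, they rest on the shared peak alone. Since the genes were chosen with peaks at F44E5.5 and hsp-1 known, nothing is read from the difference. F44E5.4, F44E5.5 and hsp-1 were also the members called in the pooled list, which called 1.23% of all genes, and in the list of replicate 2 alone, which called 0.165%. In the list of replicate 1 alone, which also called 0.165% of genes, hsp-1 was not called. At an IDR of 0.05 or less hsp-110 was added, while 6.8% of all genes were called. F44E5.4, F44E5.5 and hsp-1 were again the called members at an IDR of 0.001 or less (0.345% of all genes) and with the deposited q-value held to 0.05 or less (0.25%). The same held in windows of 500 bp (1.09%), 1 kb (1.3%) and 5 kb (2.74%), with the peak interval in place of the summit (1.77%) and with the nearest start only (1.03%).

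**Figure D1:**
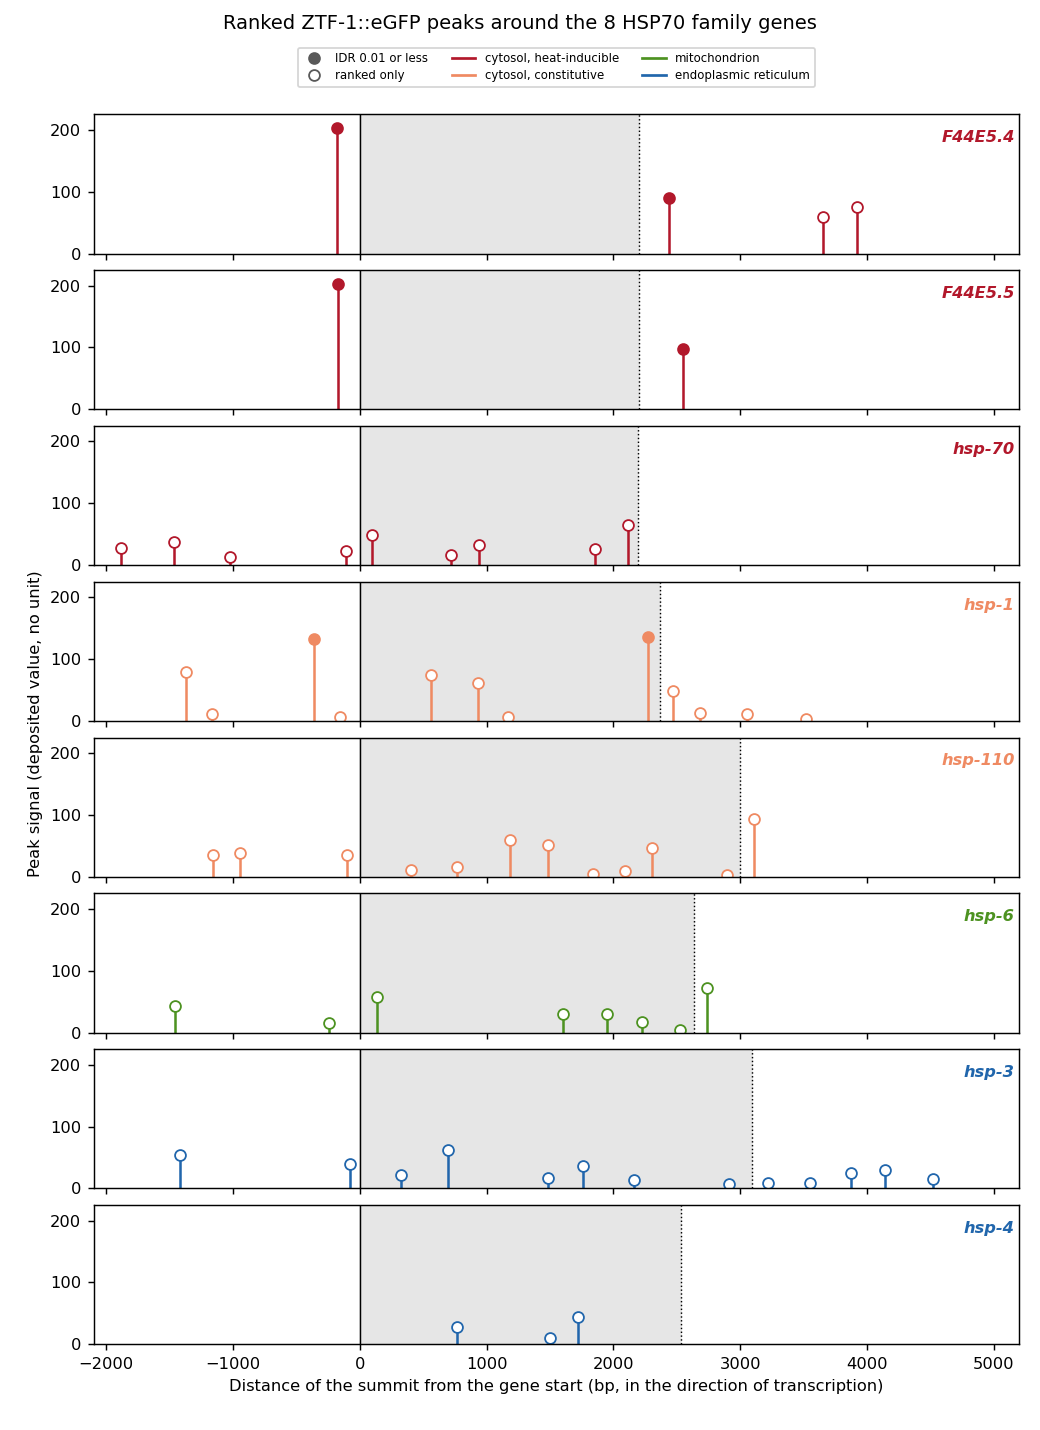
Summit positions and signals of the ranked peaks in the windows of the 8 HSP70 genes, in the list that compared the replicates. The horizontal axis is the distance from the gene start in bp along the direction of transcription, the grey band is the gene, the vertical axis is the deposited signal, and filled circles have an IDR of 0.01 or less. F44E5.4, F44E5.5 and hsp-1 have filled circles beside both ends, and hsp-4 has no ranked peak outside its own gene.

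F44E5.4 and F44E5.5 encode heat-inducible cytosolic HSP70 proteins and stand head to head on chromosome II. F44E5.4 spans 11757107 to 11759311 on the minus strand and F44E5.5 spans 11759662 to 11761861 on the plus strand, leaving 350 bp between their starts. Their coding sequences were identical over all 1935 bp. The peak between them had a signal of 203.0, which put it at place 4 of 87133 ranked entries, with an IDR of 7.2e-05 and a deposited q-value of 0.0189. Its summit, at position 11759490, lay 179 bp upstream of F44E5.4 and 172 bp upstream of F44E5.5, and 3.5 bp from the midpoint of the shared region. The peak can therefore not be assigned to either gene. Its interval, chrII:11759335-11759599 of WBcel235 (ce11), is shown on the plus strand because it carries the highest signal at any HSP70 gene in the main list. Capitals mark matches to GAANNTTC or TTCNNGAA, the paired units of a heat shock element.
shared F44E5.4 and F44E5.5 peak: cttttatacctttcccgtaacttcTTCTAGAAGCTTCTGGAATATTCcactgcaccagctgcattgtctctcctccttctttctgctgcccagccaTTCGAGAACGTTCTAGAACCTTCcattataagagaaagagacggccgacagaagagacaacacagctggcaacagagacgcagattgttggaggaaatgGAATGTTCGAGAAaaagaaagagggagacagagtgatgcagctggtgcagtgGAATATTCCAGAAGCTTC
The capitals fall into 4 blocks, and 3 alternating units at the spacing of these pairs were matched 9 times in the interval, counting overlapping matches.

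Both replicates gave this peak. In the paired columns replicate 1 had a signal of 118.9 and replicate 2 one of 85.5, and the summits of the replicates were at positions 11759488 and 11759490. In replicate 1's own ranked list of 49381 entries the peak was at place 3, and in replicate 2's own list of 36348 entries it was at place 5. The replicates thus placed the summit within 2 bp and ranked the peak among their strongest, although the signals differed.

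The peak differed from all others in its width. Every list reported intervals of a fixed width, 540 bp in the main ranked list, and this was the only one of 87133 entries that was narrower, at 265 bp. In replicate 1's ranked list it was again the only narrower entry, at 258 bp against 564 bp, and in replicate 2's at 195 bp against 524 bp. No ranked summit lay inside F44E5.4 or inside F44E5.5 in any of the 4 ranked lists. Among 3940 protein-coding genes of 2000 to 3100 bp, 14.6% had none in the main ranked list. The next ranked summits were 2620 bp and 2718 bp away, where the median gap between neighbouring summits was 514 bp and 10.5% and 9.86% of gaps were as long.

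The sequence on each side of the peak occurs more than once in the genome. Of all stretches of 50 bases that start and end inside F44E5.4, 98.1% were found elsewhere in the genome on either strand, and 97.9% of those in F44E5.5. Nearly all recur in the partner gene, which held 97.7% of the 50-base stretches of F44E5.4 and 97.9% of those of F44E5.5. Inside the other 6 genes the share of repeated 50-base stretches was 0.646% in hsp-1 and 0% in the rest. In the 2 kb flanks of these genes the share was 29.4% at hsp-110, 2.40% at hsp-4, 1.72% at hsp-70 and 0% at hsp-1, hsp-6 and hsp-3. In the interval of the strongest hsp-70 peak, which passes the gene's end, it was 6.92%. Inside the shared 350 bp it was 1.66%. With 50 bases the unrepeated stretch around the summit ran from position 11759307 to 11759656, beyond the peak interval on both sides. With 36 bases it ran from position 11759364 to 11759599, so that it began inside the interval of the main list and ended at the interval's last base. Replicate 2's own interval, from 11759374 to 11759568, lay inside both stretches. Neither the read length nor the handling of reads that match several places is stated in the sources used here, and the part of repeated sequence in the peak's width and in the empty genes was not tested. An absence of signal inside these 2 genes is therefore not shown.

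**Figure D2:**
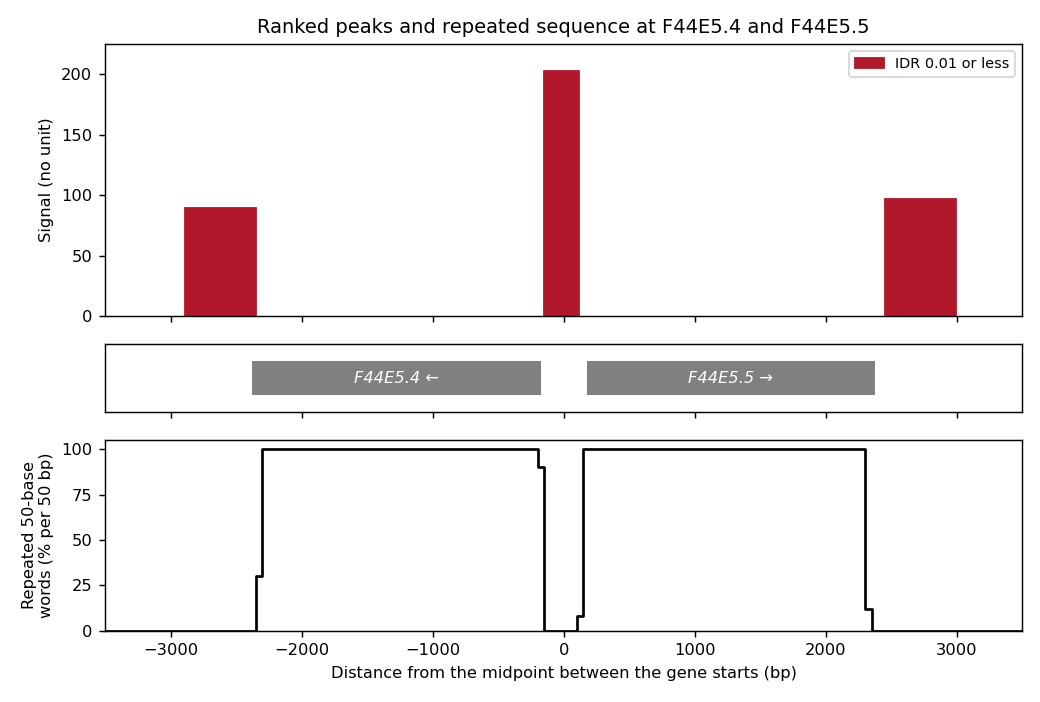
The F44E5.4 and F44E5.5 locus, by distance in bp from the midpoint between the gene starts. The top panel shows the ranked peaks in the main list as bars with their interval and signal, the middle panel the genes with their direction, and the bottom panel the percentage of 50-base stretches, per 50 bp, that occur elsewhere in the genome. The peak with a signal of 203.0 lies within the narrow gap between blocks of repeated sequence, and the peaks with signals of 89.8 and 97.2 lie beyond their outer ends.

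Beyond the far end of each gene of the pair lay a further thresholded peak. The peak 237 bp past the end of F44E5.4, inside the noncoding RNA gene F44E5.16, had a signal of 89.8, an IDR of 0.00678, and paired signals of 44.1 in replicate 1 and 49.4 in replicate 2. The peak 347 bp past the end of F44E5.5, inside the pseudogene WBGene00009690, had a signal of 97.2, an IDR of 0.00323, and paired signals of 50.3 and 48.8. The paired signals of the replicates were near each other at both, but the places in the replicates' own ranked lists differed. The F44E5.4 end peak was at place 1149 of 49381 in replicate 1 and 126 of 36348 in replicate 2. The F44E5.5 end peak was at 404 and 147. The q-values of these end peaks in the main list were 0.445 and 0.30, so neither would pass a q-value of 0.05. Neither was in the thresholded list of a single replicate. The 101 bases around each summit are shown along the gene's own strand, F44E5.4 on minus at chrII:11756820-11756920 and F44E5.5 on plus at chrII:11762158-11762258, to set them beside the shared peak.
F44E5.4 end peak: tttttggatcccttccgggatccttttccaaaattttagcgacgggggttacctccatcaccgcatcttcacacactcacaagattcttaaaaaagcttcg
F44E5.5 end peak: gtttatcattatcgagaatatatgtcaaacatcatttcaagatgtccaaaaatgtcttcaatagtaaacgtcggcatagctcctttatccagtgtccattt
Neither stretch held GAANNTTC or TTCNNGAA, so no base is in capitals.

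The third inducible cytosolic gene, hsp-70, lies on the minus strand of chromosome I, from 9320325 to 9322519, inside and opposite to uggt-2, a gene for a glycoprotein folding sensor. Its protein was 87.6% identical to that of F44E5.4 and F44E5.5. No thresholded peak fell in its window. The strongest of 9 ranked peaks, 78 bp inside its end in the 3′ UTR, had a signal of 65.1 and an IDR of 0.166. Its paired signals were 46.8 in replicate 1 and 19.05 in replicate 2, and replicate 2's own ranked list held no peak in the window at all. The 19.05 came from a replicate 2 summit at position 9320509, while the main summit was at 9320403. It was also paired with a neighbouring entry, whose signal was 25.9. Near the start, 96 bp downstream in the first part of the coding sequence, the signal was 48.9. Even the higher of these signals was below the 203.0 of the shared peak. The inducible cytosolic genes thus divided into a strongly marked pair and a gene at place 2731 of all protein-coding genes by its strongest peak. By the paired signals of replicate 1 in the main ranked list hsp-70 was at place 1018, and by those of replicate 2 at place 12326.

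The gene hsp-1, which encodes the constitutive cytosolic HSC70, lies on the plus strand of chromosome IV from 17278959 to 17281330. Its start peak, 363 bp upstream, had a signal of 133.0, an IDR of 4.46e-04 and paired signals of 62.1 in replicate 1 and 69.7 in replicate 2. Its end peak, 100 bp inside the end in the 3′ UTR, had a signal of 135.1, an IDR of 5.26e-04 and paired signals of 54.9 and 79.3. The end peak differed more between the replicates than the start peak did. In replicate 2's own ranked list they were at places 9 (end) and 17 (start), and in replicate 1's own list at places 197 (end) and 84 (start), so that the order of the pair differed between the replicates. The convergent gene nra-1 lies downstream, and the C-type lectin gene clec-196 lies upstream. Between the ends the ranked list gave weaker summits in coding sequence at 564 bp (signal 74.1, IDR 0.0275) and 929 bp (61.9, IDR 0.140) from the start. A further ranked summit, 1368 bp upstream inside clec-196, had a signal of 78.9.

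The 101 bases around the start summit, at chrIV:17278546-17278646, and the 250 bases before the gene start, at chrIV:17278709-17278958, are both given on the plus strand, since the summit lay outside the latter window. Capitals mark GAANNTTC and TTCNNGAA.
hsp-1 start peak: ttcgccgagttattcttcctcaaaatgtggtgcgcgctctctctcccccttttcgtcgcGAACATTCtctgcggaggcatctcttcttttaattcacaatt
hsp-1 promoter: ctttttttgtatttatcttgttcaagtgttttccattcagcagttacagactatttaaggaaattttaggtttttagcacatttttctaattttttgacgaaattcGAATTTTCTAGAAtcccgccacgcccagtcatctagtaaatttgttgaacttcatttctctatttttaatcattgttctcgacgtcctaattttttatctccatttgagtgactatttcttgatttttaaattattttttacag
The summit sequence had 1 GAANNTTC, and the promoter window had a block of 3 alternating units 144 bp upstream of the start. This block lay closer to the gene than the peak's summit did, but inside the peak's interval, which ran from 17278326 to 17278865.

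The cytosolic gene hsp-110, which encodes a nucleotide exchange factor of the HSP110 class, lies on the minus strand of chromosome III from 8443910 to 8446909. Its protein was the most distant of the family, with 32.3 to 35.1% identity to the other members. Its strongest peak lay 113 bp past its end and had a signal of 94.0, an IDR of 0.0130 and paired signals of 39.3 in replicate 1 and 47.8 in replicate 2. This was the member peak just outside the IDR threshold of 0.01, and the end peak of F44E5.4, at 0.00678, was the one just inside. The start of ufbp-1, a gene of the UFM1 protein modification pathway, lay 190 bp from the same summit, so the peak lies between the end of hsp-110 and the start of ufbp-1. Within 500 bp of the hsp-110 start the highest signal in the main ranked list was 35.8. The replicates differed there. Replicate 1's own ranked list held no summit within 500 bp of the start. Replicate 2's own list of 36348 entries held a peak 188 bp downstream of the start, at place 382, and its end peak was at place 168. A weak start beside a strong end is therefore not shown for hsp-110 in both replicates. The 101 bases around the end summit are shown along the minus strand, chrIII:8443747-8443847, with GAANNTTC in capitals.
hsp-110 end peak: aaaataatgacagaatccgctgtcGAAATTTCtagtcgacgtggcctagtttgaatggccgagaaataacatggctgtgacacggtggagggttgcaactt

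The mitochondrial HSP70 gene, hsp-6, a target of the mitochondrial unfolded protein response, lies on the minus strand of chromosome V from 4824124 to 4826760. No thresholded peak fell in its window. Its strongest ranked peak lay 103 bp past its end, with a signal of 71.9, an IDR of 0.204 and paired signals of 41.4 in replicate 1 and 18.5 in replicate 2. The start of adss-1, which encodes an enzyme of purine synthesis, was 598 bp from that summit. Beside the hsp-6 start, 133 bp downstream of it in the coding sequence, a peak had a signal of 57.3. The end peak was thus the higher in the main list. The start peak's paired signals were 27.3 in replicate 1 and 27.9 in replicate 2, from different places. The replicate 1 value belonged to a summit 237 bp upstream of the start, and the replicate 2 summit lay 159 bp downstream. No other summit of replicate 1's own ranked list lay within 500 bp of the start. In replicate 2's own ranked list the strongest end peak had a signal of 31.2, 230 bp past the end, so the 18.5 paired with the main peak was not that replicate's highest signal there.

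The endoplasmic reticulum genes hsp-3 and hsp-4 encode the worm's BiP proteins, which were 85.5% identical to each other. The stronger of the 2 in these data was hsp-3, on the minus strand of chromosome X from 6089028 to 6092124, with a signal of 61.4 in a coding exon 698 bp from the start. Its IDR was 0.123 and its paired signals were 31.4 in replicate 1 and 28.3 in replicate 2. Of 13 ranked peaks around hsp-3, the one nearest the start lay 77 bp upstream with a signal of 39.2. The gene hsp-4, on the minus strand of chromosome II from 7350112 to 7352645, is raised by the unfolded protein response. In the main ranked list it had 3 peaks, all inside the gene, the highest with a signal of 44.7, paired signals of 21.3 in replicate 1 and 21.9 in replicate 2, and an IDR of 0.316. At the strongest peak of each of these genes the paired signals were near each other, at levels below those of the 3 called genes. They differed at some weaker entries. The hsp-3 peak 77 bp upstream had 38.4 in replicate 1 and 10.1 in replicate 2. The hsp-4 peak 767 bp from the start had 7.2 and 19.6. Replicate 1's own ranked list, however, held no peak inside hsp-3, and both of its peaks in the window lay upstream.

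The hsp-4 promoter is shown because it carries the word TGACGTG of the unfolded protein response element, marked in capitals on either strand along with GAANNTTC and TTCNNGAA. The window is the 250 bases before the start, on the minus strand, at chrII:7352646-7352895.
hsp-4 promoter: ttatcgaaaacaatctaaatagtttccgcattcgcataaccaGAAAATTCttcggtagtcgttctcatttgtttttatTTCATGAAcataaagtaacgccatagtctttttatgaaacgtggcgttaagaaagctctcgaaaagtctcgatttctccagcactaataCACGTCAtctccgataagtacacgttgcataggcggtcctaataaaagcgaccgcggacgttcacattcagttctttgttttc
The hsp-4 window, with 1 match to TGACGTG, held no summit of the main ranked list.

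**Figure D3:**
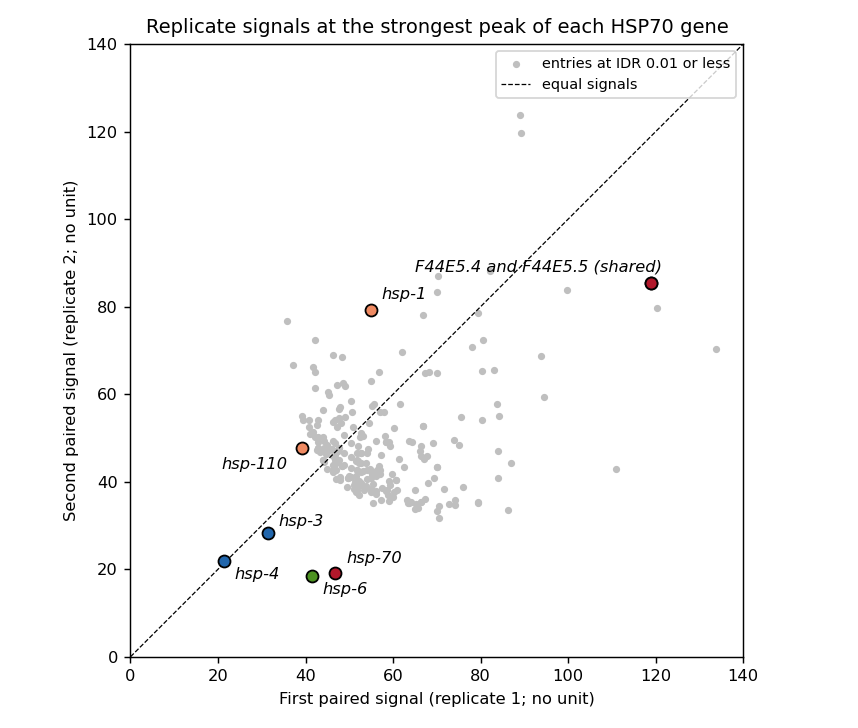
Paired signals of replicate 1 (horizontal axis) and replicate 2 (vertical axis) at the strongest ranked peak of each HSP70 gene, with the entries at an IDR of 0.01 or less in grey and a dashed line of equal signals. F44E5.4 and F44E5.5 share 1 point, at 118.9 and 85.5. The hsp-70 and hsp-6 points, at 46.8 and 19.05 and at 41.4 and 18.5, lie far below the line of equal signals.

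By the strongest ranked peak in each window, overlapping entries merged, F44E5.4 and F44E5.5 shared place 9 of 19985 protein-coding genes and hsp-1 was at place 42. The gene hsp-110 followed at place 273, hsp-6 at 1532, hsp-70 at 2731, hsp-3 at 3688 and hsp-4 at 10369. The members' median was 82.9, with the shared peak counted for both F44E5.4 and F44E5.5, and the range was 44.7 to 203.0. The median of the 19259 protein-coding genes with a ranked peak was 46.2. Among the 199 genes in the top 1% (0.996% of genes) were 3 of the 8, hsp-1 and the pair through its shared peak. Since the family was chosen with peaks at F44E5.5 and hsp-1 known, nothing is read from these differences. By the paired signals of replicate 2, in place of the list's own signal, the pair was at place 8, hsp-1 at 17, hsp-110 at 245, hsp-3 at 2428 and hsp-6 at 5227. By those of replicate 1 the pair was at place 6, hsp-1 at 137, hsp-110 at 945, hsp-6 at 2141 and hsp-3 at 6793. The pair, hsp-1 and hsp-110 kept this order in both columns of paired signals. The genes hsp-70, hsp-6, hsp-3 and hsp-4 changed places, so their order is not resolved by 2 replicates. By replicate 2 hsp-4, at 9936, stood above hsp-70, at 12326. By replicate 1 hsp-4 was at 13531 and hsp-70 at 1018.

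**Figure D4:**
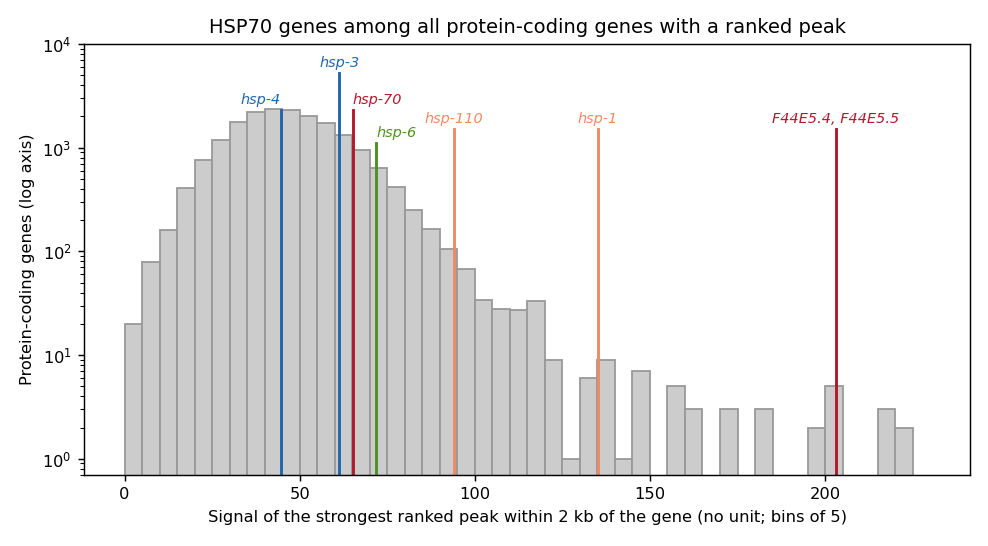
Number of protein-coding genes (vertical axis, log scale) by the signal of their strongest ranked peak within 2 kb, in bins of 5 signal units. Coloured lines mark the HSP70 genes, which run from hsp-4 at 44.7, near the median of 46.2, to F44E5.4 and F44E5.5 at 203.0.

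Gene class and compartment did not order the signals by themselves. The inducible cytosolic genes held the highest value, 203.0 for the pair, and also 65.1 for hsp-70. The constitutive cytosolic genes hsp-1 and hsp-110 had 135.1 and 94.0. All 3 genes of the organelles, hsp-6, hsp-3 and hsp-4, were at 71.9 or below and had no thresholded peak. The lowest of all members by the main list's signal, hsp-4 at 44.7, was also classed as inducible. By the paired signals of replicate 2, hsp-70 (19.05) was lower than hsp-4 (21.9). With 8 genes chosen as a family, these are descriptions and no class was tested against another.

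Gene ends were then described beside gene starts, a rule added after the values had been seen. Different thresholded summits lay within 500 bp of the start and of the end at 3 of the 8 HSP70 genes, F44E5.4, F44E5.5 and hsp-1. Among all protein-coding genes this held for 9 of 19985, or 0.045%, the other 6 being icl-1, W02H5.19, mxl-3, ubxn-3, Y18D10A.4 and K10D2.5. In the pooled list it held for 3 genes (0.015%), all of them HSP70 genes. The family was chosen with peaks at F44E5.5 and hsp-1 already known, and F44E5.4 and F44E5.5 meet the rule through the same start peak. Nothing is therefore read from the difference between the HSP70 genes and all genes. Thresholded summits near the end alone were found at 0.38% of genes, and near the start at 0.395%. By the strongest ranked summit within 500 bp of the end, with overlapping entries kept separate, hsp-1 was at place 6 of all protein-coding genes, F44E5.5 at 38, hsp-110 at 49 and F44E5.4 at 63. Next came hsp-6 at 238 and hsp-70 at 431, whereas hsp-3 was at 10324 and hsp-4 had none. Within 500 bp of the start, also without merging, after the pair at 4 and hsp-1 at 19, hsp-6 was at 938, hsp-70 at 1722, hsp-3 at 3247 and hsp-110 at 3972, and hsp-4 again had none. With merging hsp-6 was at 918 and hsp-70 at 1669 near the start, and hsp-3 and hsp-110 had no summit there. For 4 of the 8 genes, hsp-1, hsp-110, hsp-6 and hsp-70, the strongest peak of the window was at the end, as it was for 15.6% of the 19259 genes with a ranked peak. In replicate 1's own ranked list this held only for hsp-6 and hsp-70, since the strongest peak of hsp-1 was at its start and that of hsp-110 (47.2, against 39.3 at the end) inside the gene. In replicate 2's own list it held for hsp-1, hsp-110 and hsp-6. At hsp-1 the 2 ends were nearly equal, and at hsp-110 and hsp-6 a neighbouring gene starts nearby, so the peak may be counted for either gene.

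The promoter words were searched on both strands from 250 bp before to 50 bp after the start of each member except hsp-3. Starts came from the Ensembl gene models and bases from RefSeq's genome of the same build. A run of 3 alternating heat shock units was found 7 times each in the promoters of F44E5.4 and F44E5.5, whose windows overlap in the shared region, 2 times in hsp-110 and 1 time each in hsp-70 and hsp-1, with overlapping matches counted. None was found in hsp-6 and hsp-4. Such a run was present in 1.97% of 19973 promoters. GAANNTTC alone was present in 18.5% and TTCNNGAA in 18.9%. Among these 7 genes TGACGTG was found only in hsp-4, and it was present in 2.93% of all promoters. GAGAG, a word bound by GAGA factor in flies, was found in F44E5.4, hsp-6 and hsp-4 and in 39.9% of promoters.

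Runs of heat shock units were rare in the list as a whole. In 265 bp around summits, a run of 3 units was found at 4 of 214 merged main peaks, or 1.87%, and at 650 of 43349 merged ranked peaks. The shared peak had 10 overlapping matches in that window, and the other 3 peaks, nearest to vps-51, Y22D7AL.10 and R107.5, had 1 each. Of the other member peaks past the threshold, none had a run of 3 units in that window, which is narrower than their 540 bp intervals. The block 144 bp upstream of the hsp-1 start lay outside the window but inside the interval of the hsp-1 start peak. In the 100 bp around the summit GC content was 46.0% at the shared peak, 48.0% at the hsp-1 start, 37.0% at the hsp-1 end, 45.0% at the F44E5.4 end and 34.0% at the F44E5.5 end. The 214 main peaks averaged 46.3% ± 8.58 (SD, n = 214 peaks), so the values of the HSP70 genes lay on both sides of the mean, within 2 SD.

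Other genes of the chaperone pathway came from lists drawn up by function. Of 20 J-domain and co-chaperone genes, 2 were called, dnj-12 and dnj-13, which encode J-domain partners of cytosolic HSP70. The dnj-12 peak, with a signal of 116.6, lay 503 bp past the gene's end, inside tmem-107 and the snoRNA gene F39B2.14. The dnj-13 peak, with a signal of 116.3, lay 32 bp inside its end in the 3′ UTR, also inside dhgd-1 and 189 bp from the start of F54D5.7. Both lay at the far end of the gene, in places shared with neighbours. At an IDR of 0.05 or less unc-23 (92.4), sti-1 (87.6) and hip-1 (89.4), which encode co-chaperones of the BAG, HOP and HIP kinds, were called as well, at a threshold that called 6.8% of all genes. The list's median strongest signal was 48.7, near the 46.2 of all genes.

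Of 14 small heat shock genes, 12 were matched by name and none was called. At an IDR of 0.05 or less, where 6.8% of all genes were called, hsp-16.2 and hsp-16.41, which share a peak with a signal of 84.5, and sip-1 (80.6) were called. In the pooled list sip-1 passed, and the list's median was 50.6. None of 14 regulators of the heat shock and unfolded protein responses was called, hsf-1 among them with a strongest signal of 40.8. The highest was hsb-1, a gene for a binding partner of HSF-1, at 85.6, and the median of the 13 genes with a ranked peak was 45.7. Of 4 further HSP70-like genes none was called, with a median of 36.1. One of these, F54C9.2, is stc-1 and was also among the co-chaperones. The called share in the first list was 2 of 20 and in the other lists 0, beside 1.64% of all genes.

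The main entries whose paired signals were most like those of the shared peak, by distance on the log2 scale over 238 entries, were nearest to F20B6.9 (0.10), egg-5 (0.25) and cdc-48.1 (0.33). The F20B6.9 entry had paired signals of 120.2 in replicate 1 and 79.7 in replicate 2, the egg-5 entry 99.8 and 83.8, and the cdc-48.1 entry, upstream of a gene for a p97 protein unfoldase, 133.8 and 70.4. At each of these, as at the shared peak, replicate 1 had the higher signal. The entries were picked by these same paired signals, so that likeness follows from the choice and nothing is read from it. At both hsp-1 peaks replicate 2 had the higher signal.

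Just inside the 2 kb window edge was a ranked peak 1887 bp upstream of hsp-70, with a signal of 27.8. Just outside were peaks 40 bp beyond the edge at hsp-110 (signal 28.8) and 102 bp beyond it at hsp-70 (32.1). None of the 3 was thresholded, so the window's edge decided no call.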

How the data were processed

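ZTF-1::eGFP ChIP-seq peak lists of 2 biological replicates of L2 larvae were analysed from the deposited files, all on assembly ce11 per the text notes deposited with them. The names and settings of the peak caller and the aligner, and the read length, were not given in the sources used here. There were 8 lists, a ranked and a thresholded one for each replicate, for the comparison of the replicates and for pooled data. The signal of a peak is the authors' deposited value, with no stated unit. The −log10 q-value and −log10 IDR columns were read from their place in the deposited files, which have no header, and summit offsets in the same files are the authors' own. Which replicate each paired signal belongs to was read from identical intervals: 53.9% of the first and 44.9% of the second were in the own ranked list of replicate 1 and of replicate 2, and 0% in that of the other. Depth is unknown, so no precision can be given for a single signal.

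Genes were those of Ensembl release 115 on WBcel235, which is ce11 under another name, and bases were read from RefSeq's genome of that build. A gene was called where a thresholded summit lay from 2 kb upstream of its start to 2 kb downstream of its end. Overlapping entries (1 bp or more) were merged for places among genes by the whole window, keeping the highest, and kept separate for places by gene start or end. The members and the pathway lists were chosen with earlier results of these data known, and no test was made on them. Named genes were the 8 members, the pathway genes with a thresholded summit, the genes at or nearest to a member's thresholded summit, and those nearest to the 3 main entries most like the strongest member peak. The genes beside peaks just outside the threshold, those called at IDR 0.05, hsb-1, hsf-1, those with peaks at both ends and those with runs of heat shock units were named after their values were seen. Runs of heat shock units, repeated stretches of 36 and 50 bases on either strand, and identities from pairwise alignments of coding sequences and their translations were computed by script. The promoter of hsp-3 is not reported here. Alternatives changed the list, the IDR or q-value threshold, the window, the overlap and the assignment. Scripts used Python 3.11.15, numpy 2.4.6, pandas 2.3.3, scipy 1.17.1 and matplotlib 3.10.9, and the summit assignment was tested on simulated data.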

Additional observations from a re-analysis of the deposited data

How the results depend on the processing

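The count of called HSP70 genes, 3 of 8 in the main list, was 2 to 3 with a replicate left out, 4 at an IDR of 0.05 and 3 in the other 8 alternatives. The share of all protein-coding genes called, 1.64% in the main list, was 0.165 to 0.165% with a replicate left out, 0.345% at an IDR of 0.001, 6.8% at 0.05, 0.25% at a q-value of 0.05 or less, 1.09% in a window of 500 bp, 2.74% in a window of 5 kb and 1.03% with peaks counted for the nearest start only. These lists and windows hold fewer or more peaks by construction. The summit of the shared peak lay at -172 bp from the start of F44E5.5, and at -174 to -172 bp with a replicate left out. In each alternative ranking 3 of the 8 genes were in the top 1% of genes. With summits near the start only, hsp-110, hsp-3 and hsp-4 had no value after merging. The number of genes with peaks at both ends, 9 in the main list, was 3 in the pooled list. The settings at both gene ends and without merging of places were chosen after seeing the data. Over all values recomputed under an alternative, 63 stayed within the set limits, 28 moved and 0 reversed. No paired analysis was possible because there is 1 group. Without read counts, the depth behind a weak peak at hsp-3, hsp-4, hsp-6 or hsp-70 is unknown, so a peak that did not pass is not shown to be absent.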
